A study of Mus musculus with 6 samples.

Results

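The axon guidance ligands and receptors are secreted and membrane-bound cues and the receptors that read them. They were taken here by gene symbol from the annotation as all protein-coding genes of the class 3 to 7 semaphorins, plexins, neuropilins, slits, Robo receptors, netrins, the netrin receptors Dcc, Neo1 and Unc5, ephrins, Eph receptors, teneurins and Flrt proteins. The rule gave 77 genes, and 76 of them had a row among the 50600 genes with counts, while Ntn3 was not analysed here. No expression value entered this choice. The cues were first described in growing axons, which they attract or repel, and most of them act by rearranging the actin cytoskeleton through small GTPases. Many of the same proteins work in blood vessels: neuropilin-1 is a co-receptor for semaphorin 3 proteins and for VEGF, Robo4 is an endothelial Robo, and ephrin-B2 and EphB4 mark arterial and venous endothelium. In connective tissue, slits, netrins, teneurins and Flrt proteins act in cell adhesion and migration.

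RNA was sequenced from the cardiac side population (SP), the cells of the heart that pump out the Hoechst dye, sorted from suspensions depleted of cardiomyocytes and erythrocytes. There were 3 libraries from wild-type mice (wt, strain C57BL/6NRj) and 3 from mice labelled flt3L-/- (C57BL/6Flt3Ltml/mx on a C57BL/6N background), a strain made to lack the cytokine Flt3 ligand. The mice were aged 8 to 12 wk with no treatment stated, and each library pooled the cells of 4 mice, so that the spread between libraries is a spread between pools. A wt and a flt3L-/- library were sorted on each of 3 dates (August 22 and August 24, 2016 and August 29, 2017) and form pairs 1, 2 and 3.

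Total counts lay between 24370913 and 31145519 per library, and at that depth 3 counts corresponded to between 0.109 and 0.127 CPM (CPM scales counts to a common library size, with TMM factors that even out differences in composition). Flt3l, the gene named in the genotype, was not lower in the libraries labelled flt3L-/-, with 8.67, 10.8 and 12.1 CPM in wt and 13.6, 12.4 and 14.4 CPM in flt3L-/- (log2 fold change 0.37, SE 0.198). The position of the altered part of the allele is not given in the sources used here, so this count does not check the label, and flt3L-/- below is the label. The sorted cells carried RNA of several cell types. The summed CPM of 9 endothelial markers was 7163 to 9529 over the 6 libraries, that of 8 fibroblast markers 3624 to 17996, that of 8 leukocyte markers 117 to 971, and that of 8 Schwann and neural markers 11.3 to 36.3, with the glial factor Sox10 under 3 counts in every library. Fewer cells of a type and less RNA per cell cannot be told apart in such bulk samples.

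The first question was which of these cues and receptors the cardiac SP expressed. Levels between genes were compared as CPM per kb of exons in wt (mean ± SD, n = 3). Nrp1 stood first at 146 ± 9.15 CPM per kb and held 32.7% of the summed wt CPM of all members. Robo4 followed at 71.7 ± 18.7, the ligand Efna1 at 60.7 ± 3.69, the receptor Ephb4 at 53.5 ± 11.2 and the ligand Efnb1 at 34.4 ± 6.73. The SDs of Robo4, Efna1 and Ephb4 reach into each other, so their means do not resolve the order. Within each wt library Ephb4 lay below both Robo4 and Efna1, which changed places between libraries. Nrp1 lay above all of them in each wt library. The next members were Sema3g (19.2 ± 6.96), Plxna2 (17.4 ± 5.27), Sema6b (16.6 ± 0.536) and Nrp2 (15.8 ± 2.55), which were not separated by their spread either.

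Most of these abundant genes are known from vessels. Sema3g is a secreted semaphorin of endothelium, and Plxna2 and Plxnd1 (15.3 ± 6.15 CPM per kb) are signalling receptors for semaphorins. Ephrin-A1 and ephrin-B1 are membrane-bound ligands of EphA and EphB receptors, and Epha2, a receptor of ephrin-A1, stood at 9.44 ± 0.391. Of the netrin system, the receptor Unc5b had 10.9 ± 2.63 CPM per kb, the basement membrane netrin Ntn4 8.30 ± 5.30, the classical netrin Ntn1 6.30 ± 3.51 and the receptor neogenin (Neo1) 4.49 ± 2.82.

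The slit and teneurin systems sat lower, with Slit2 at 2.09 ± 1.45 CPM per kb, its receptors Robo1 at 1.98 ± 1.4 and Robo2 at 1.28 ± 0.334, the homophilic adhesion protein Tenm3 at 2.93 ± 2.10 and Flrt2, a ligand of Unc5 receptors and of latrophilins, at 3.46 ± 0.873. The median over all 76 members was 1.52 CPM per kb. It was 2.95 over the 56 members that entered the tests, beside 5.43 over all 13475 genes tested.

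**Figure D1:**
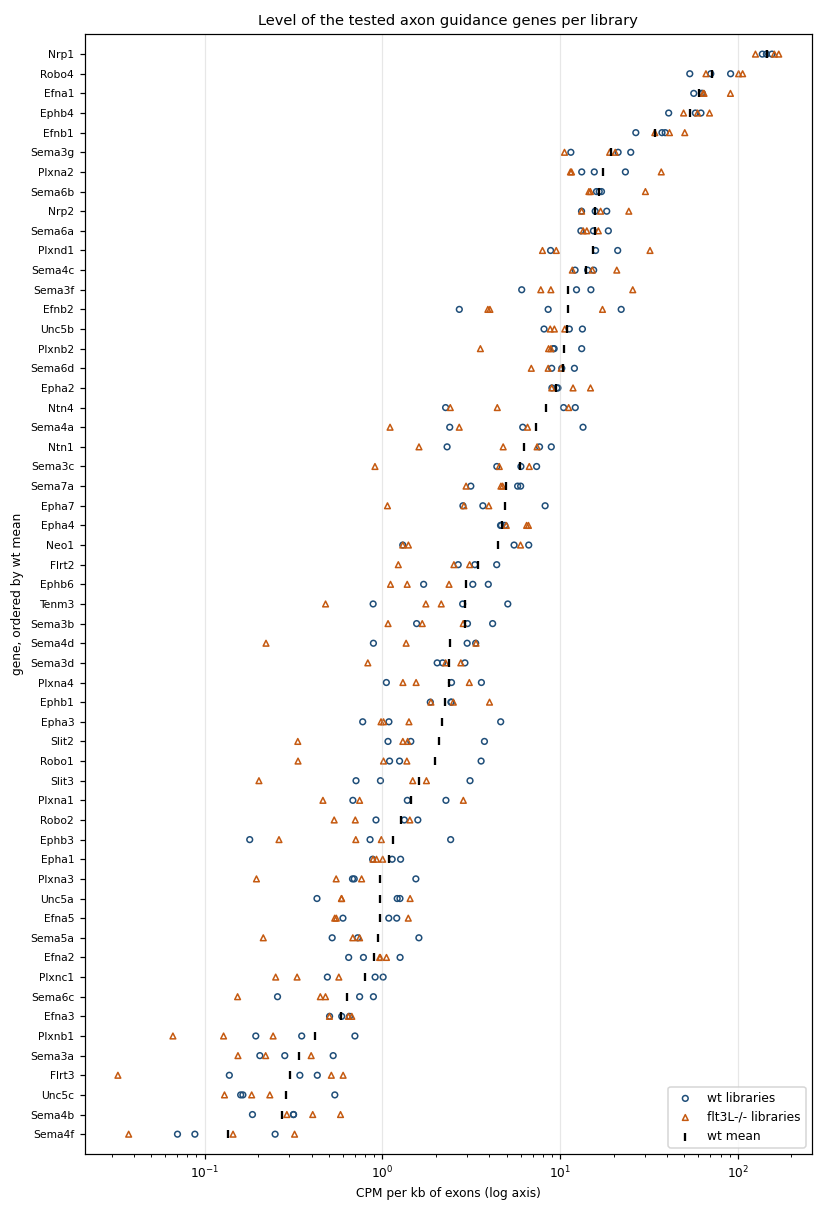
Level of each tested axon guidance gene in CPM per kb of exons on a log axis, with circles for the 3 wt libraries, triangles for the 3 flt3L-/- libraries and a bar for the wt mean. Nrp1 lies at the top at a wt mean of 146, followed by Robo4, Efna1, Ephb4 and Efnb1, and for most genes the circles and triangles overlap.

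A gene was tested where it had more than 1 CPM in at least 2 libraries, which 56 members passed, none of them through libraries of a single genotype. The other 20 never exceeded 1.47 CPM (Ephb2), and Epha6 and Epha8 stayed under 3 counts in every library. These low members include Dcc, the classical netrin receptor of axons, at up to 0.119 CPM, the neuronal slit Slit1 at up to 0.158 CPM and the teneurin Tenm2 at up to 0.261 CPM.

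The second question was which members differed between flt3L-/- and wt. At an adjusted p under 0.05 in edgeR's quasi-likelihood test with the sorting date as a block, 0 of 13475 genes (0.0%) and 0 of the 56 members were called, and the lowest adjusted p of any member was 0.973. DESeq2 called 21 genes (0.156%) and edgeR's likelihood ratio test 12 (0.0891%), limma-voom 0, and none of those tests called a member. The study, with an older edgeR release, listed Tenm3 and Ntn1 as lower in flt3L-/- at an adjusted p under 0.05 in its quasi-likelihood test. The counts given here hold for the releases and settings run here, in which no member was called. Differences between the genotypes are therefore given here by size, by pair and by unadjusted p. Of the 56 members, 10 (17.9%) had an unadjusted p under 0.05 and a negative log2 fold change, beside 335 of all genes tested (2.49%). None had such a p with a positive one, beside 149 of all genes (1.11%). The 10 members were Tenm3, Ntn1, Slit2, Robo1, Robo2, Plxnb1, Plxnc1, Ephb6, Flrt2 and Sema6c, and all 10 were lower in flt3L-/- in 3 of 3 pairs (adjusted p = 0.973 for each by edgeR).

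Across the members, 39 of 56 (69.6%) had a negative log2 fold change, beside 50.0% of all genes tested, with a median of -0.30 beside 0.00 (-0.00027) over all genes. The pairs were not alike, since the median difference of the members was 0.17 in pair 1, -0.22 in pair 2 and -0.22 in pair 3, so that the sign in pair 1 was opposite to that of the fitted median. In all, 15 members (26.8%) were lower in 3 of 3 pairs, beside 11.5% of all genes, and 4 (7.14%) were higher in 3 of 3, beside 14.2%. Complete separation of the groups was rare: Plxnb2 was the 1 member with every flt3L-/- library below every wt library (2.92% of all genes) and Efna1 and Epha4 were the 2 with every flt3L-/- library above (3.53% of all genes).

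The list of 10 depended on the pairs and on the block. Its count fell without pair 1, pair 3 or the block and rose without pair 2, where 6 of the 10 were kept. Without pair 1, 4 members were lower at an unadjusted p under 0.05 (1.97% of all genes tested), without pair 3 they were 3 (1.06%), and without pair 2 they were 12 lower (5.7%) and 3 higher (1.78%). Tenm3 was the 1 member in all of those lists, and with no block for the date a single member, Plxnc1, was left (1.25%). The list also moved with the method: Sema6c had such a p in 5 of 12 alternatives with all 6 libraries, Robo2 had none in limma-voom, and Plxnb2, Sema5a and Epha7 gained one in DESeq2, in the likelihood ratio test and without the filter on low counts. With no filter on low counts, 12 of the 76 members were lower (2.21%) and none higher at such a p.

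**Figure D2:**
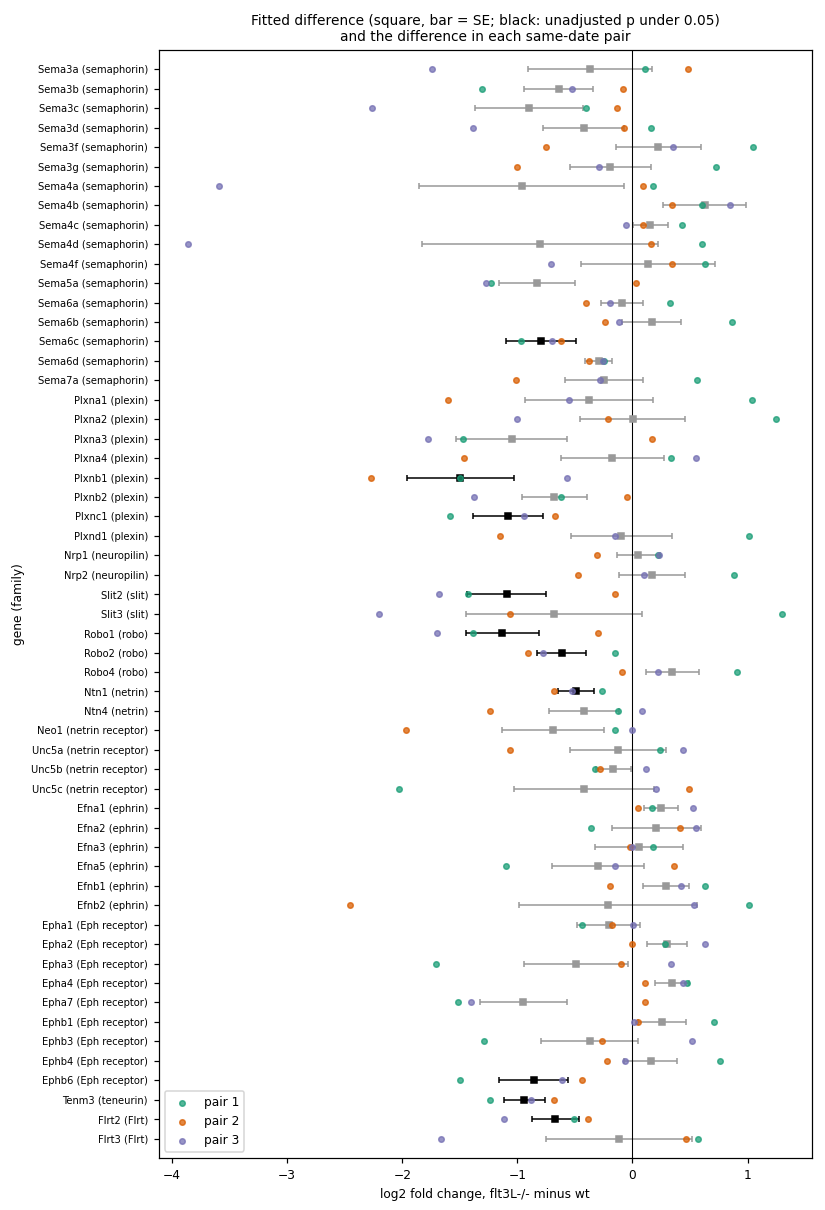
Difference between flt3L-/- and wt as log2 fold change for the 56 tested members, grouped by family, with the fitted value and its SE as a square with a bar and the 3 same-date pairs as coloured points. The 10 genes in black (unadjusted p under 0.05) all lie left of 0 with their 3 points, while for most other genes the pairs lie on both sides.

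Semaphorins are ligands with a common sema domain, secreted in class 3 and membrane-bound in classes 4 to 7. Of 17 tested, 12 had negative and 5 positive log2 fold changes, and 1 had an unadjusted p under 0.05. Sema6c, a transmembrane semaphorin, had 5.29, 4.42 and 1.53 CPM in wt and 2.66, 2.84 and 0.910 CPM in flt3L-/-. The libraries of both groups overlapped because both libraries of pair 3 were the lowest of their group, and within each pair the flt3L-/- library was lower (log2 fold change -0.79, SE 0.303). Its p lay at the threshold and was over it with median-of-ratios or upper quartile factors, DESeq2, the likelihood ratio test and robust fitting.

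A pair of secreted semaphorins was also lower in 3 of 3 pairs. Sema3b had 19.9, 14.4 and 7.45 CPM in wt and 8.01, 13.6 and 5.15 CPM in flt3L-/- (log2 fold change -0.64, SE 0.300). Sema3c, a cue of outflow tract development, had 43.0, 52.7 and 31.5 CPM in wt and 32.5, 47.9 and 6.49 CPM in flt3L-/-, so that most of its difference came from pair 3 (log2 fold change -0.90, SE 0.469). Sema4b, a membrane semaphorin, was higher in 3 of 3 pairs at a low level, with 1.05, 1.79 and 1.79 CPM in wt and 1.64, 2.29 and 3.28 CPM in flt3L-/- (log2 fold change 0.63, SE 0.357).

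The most abundant semaphorins per kb showed no difference beyond the spread of the libraries. Sema3g had 52.2, 96.3 and 113 CPM in wt and 86.3, 48.1 and 92.8 CPM in flt3L-/-, with full overlap (log2 fold change -0.19, SE 0.352). Sema6b, a transmembrane semaphorin, had 65.9, 67.9 and 63.6 CPM in wt and 119.9, 57.7 and 58.8 CPM in flt3L-/-, with 1 high flt3L-/- library (log2 fold change 0.17, SE 0.257).

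Plexins are the signalling receptors of semaphorins, and 7 of 8 tested had a negative log2 fold change. The lowest one, Plxnb1, a receptor of Sema4d, had 6.73, 3.38 and 1.86 CPM in wt and 2.33, 0.637 and 1.23 CPM in flt3L-/- (log2 fold change -1.50, SE 0.464). Its libraries overlapped, with flt3L-/- 1 above wt 3. Plxnc1, the receptor of Sema7a, had 8.44, 7.61 and 4.10 CPM in wt and 2.77, 4.75 and 2.10 CPM in flt3L-/- (log2 fold change -1.08, SE 0.307), and the groups overlapped only where flt3L-/- 2 lay above wt 3.

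Plxnb2, a more abundant receptor of class 4 semaphorins, had 102, 70.7 and 71.5 CPM in wt and 66.5, 68.5 and 27.5 CPM in flt3L-/- (log2 fold change -0.68, SE 0.281). Here the groups did not overlap, though wt 2 and flt3L-/- 2 were 2.12 CPM apart. Plxna2 went both ways, with 268, 227 and 400.3 CPM in wt and 637, 196 and 199 CPM in flt3L-/- (log2 fold change 0.00077, SE 0.460), and its sign depended on the scaling. Plxnd1, the endothelial receptor of Sema3e, had 116, 154 and 64.6 CPM in wt and 234, 69.5 and 58.1 CPM in flt3L-/- (log2 fold change -0.10, SE 0.436).

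The neuropilins, co-receptors without a signalling domain of their own, did not move with the genotype beyond their spread. Nrp1 had 1344, 1522 and 1417 CPM in wt and 1572, 1229.9 and 1663 CPM in flt3L-/-, with the wt libraries inside the range of the flt3L-/- libraries (log2 fold change 0.05, SE 0.186). It was higher in flt3L-/- in pairs 1 and 3 and lower in pair 2. Nrp2, the neuropilin of veins and lymphatic vessels, had 156, 217 and 187 CPM in wt and 289, 157 and 200.2 CPM in flt3L-/- (log2 fold change 0.17, SE 0.284).

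Slits are secreted ligands and Robo1 and Robo2 are their receptors. Slit2 and both of these receptors were lower in flt3L-/- in 3 of 3 pairs. Slit2 had 95.5, 36.8 and 27.4 CPM in wt and 35.3, 33.2 and 8.51 CPM in flt3L-/- (log2 fold change -1.09, SE 0.343). Robo1 had 59.4, 20.6 and 18.1 CPM in wt and 22.7, 16.8 and 5.54 CPM in flt3L-/- (log2 fold change -1.13, SE 0.316). Both genes were highest in wt 1 and lowest in flt3L-/- 3, with the other 4 libraries close together and overlapping.

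Robo2 had 26.9, 22.6 and 15.6 CPM in wt and 24.3, 11.97 and 9.10 CPM in flt3L-/- (log2 fold change -0.61, SE 0.213). In pair 1 its difference was -0.15, against -0.91 in pair 2 and -0.78 in pair 3. Robo4, the endothelial member that maintains vessel stability, went the other way with 285, 374 and 483 CPM in wt and 536, 351 and 564 CPM in flt3L-/- (log2 fold change 0.35, SE 0.232). Slit3 was variable, with 4.31, 18.9 and 5.92 CPM in wt and 10.7, 8.996 and 1.23 CPM in flt3L-/- (log2 fold change -0.68, SE 0.764).

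Netrins are laminin-related secreted proteins. Ntn1 had 56.0, 48.1 and 14.5 CPM in wt and 46.6, 30.04 and 10.1 CPM in flt3L-/- (log2 fold change -0.49, SE 0.154). The gap between the sorting dates was wider than that between the genotypes, as both libraries of pair 3 lay below all others, and within the pairs the differences were -0.26, -0.68 and -0.52. Ntn4 had 45.6, 39.2 and 8.49 CPM in wt and 41.8, 16.6 and 9.02 CPM in flt3L-/- (log2 fold change -0.42, SE 0.304).

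Of the netrin receptors, all 4 tested had a negative log2 fold change and none an unadjusted p under 0.05. Neo1, a receptor of netrins and of repulsive guidance molecules, had 58.1, 48.0 and 11.4 CPM in wt and 52.2, 12.2 and 11.4 CPM in flt3L-/-, so that its difference lay in pair 2 alone and pair 3 was level (log2 fold change -0.69, SE 0.446). Unc5b, the netrin receptor of endothelial tip cells, had 83.6, 70.5 and 50.8 CPM in wt and 66.5, 58.1 and 55.1 CPM in flt3L-/- (log2 fold change -0.16, SE 0.151).

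Ephrins and Eph receptors signal in both directions between touching cells. Of 6 ephrins tested, 4 had a positive log2 fold change, beside 6733 of all 13475 genes tested. The 2 slits and 2 netrins tested had negative ones and the 2 neuropilins positive ones, and differences between families were not tested. Efna1 had 103, 114 and 116 CPM in wt and 117, 118 and 166 CPM in flt3L-/- (log2 fold change 0.25, SE 0.149), and the groups were separated by 0.903 CPM. Efnb1 had 92.1, 135 and 129 CPM in wt and 142, 118 and 174 CPM in flt3L-/- (log2 fold change 0.29, SE 0.1996).

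Among 9 Eph receptors tested, Epha4, which binds both classes of ephrin, had 37.6, 37.2 and 39.4 CPM in wt and 52.2, 40.1 and 53.5 CPM in flt3L-/- (log2 fold change 0.34, SE 0.148). The wt libraries lay close together and each flt3L-/- library above them. Epha2 had 45.5, 42.1 and 44.9 CPM in wt and 55.3, 42.0 and 69.3 CPM in flt3L-/- (log2 fold change 0.30, SE 0.172). Ephb4, the venous receptor of ephrin-B2, had 189, 268 and 288 CPM in wt and 322, 229.8 and 276 CPM in flt3L-/-, with full overlap (log2 fold change 0.16, SE 0.234).

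Ephb6, an Eph receptor without kinase activity, was the member of this family with an unadjusted p under 0.05. It had 14.9, 12.2 and 6.44 CPM in wt and 5.21, 8.95 and 4.20 CPM in flt3L-/- (log2 fold change -0.86, SE 0.300), with wt 3 inside the flt3L-/- range.

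Teneurins are large transmembrane proteins that bind each other and latrophilins, and Tenm3 was the 1 of 4 that was expressed above the filter. It had 52.0, 29.0 and 9.09 CPM in wt and 22.0, 18.0 and 4.91 CPM in flt3L-/- (log2 fold change -0.94, SE 0.178). The differences were -1.24, -0.69 and -0.88 in the 3 pairs, and the overlap of the groups came from wt 3, which lay below the flt3L-/- libraries of the other dates. Over the settings that kept all 6 libraries and the block, its log2 fold change stayed between -1.01 and -0.94, and its adjusted p over all settings lay between 0.115 and 0.999. Flrt2 had 34.0, 25.6 and 20.6 CPM in wt and 23.9, 19.5 and 9.50 CPM in flt3L-/- (log2 fold change -0.67, SE 0.204), with flt3L-/- 1 above wt 3. Flrt3, a related adhesion protein, stayed under 3 CPM in every library and its sign changed with the method (log2 fold change -0.12, SE 0.633).

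**Figure D3:**
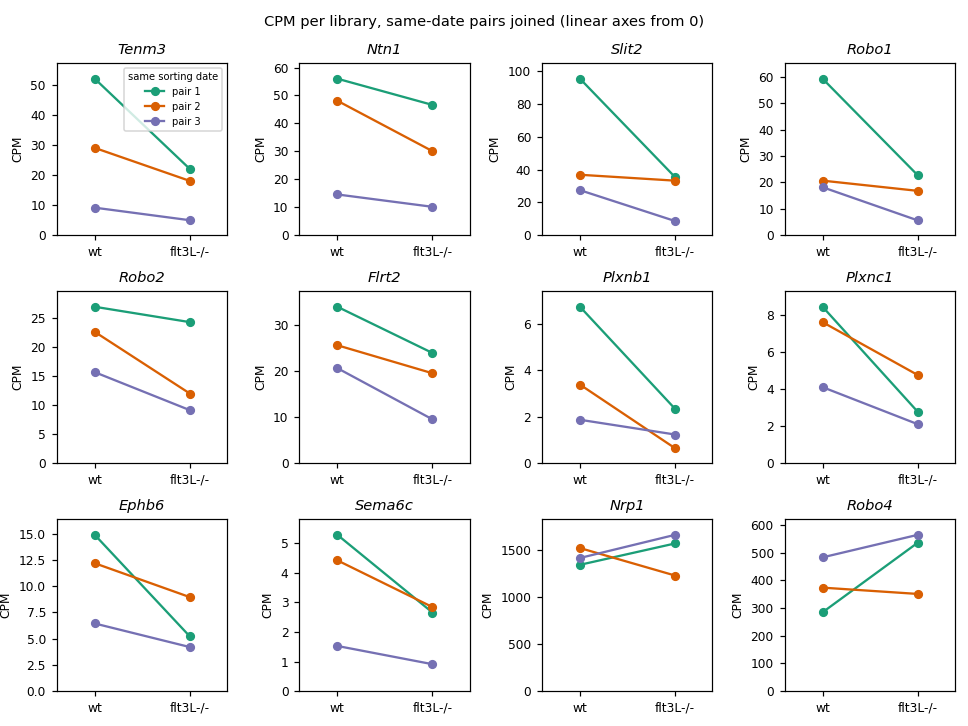
CPM (linear axes from 0) of 12 members in wt and flt3L-/-, with lines joining the libraries of the same sorting date. All 3 lines fall in the first 10 panels, those with an unadjusted p under 0.05, while in Nrp1 and Robo4 the line of pair 2 falls and the other lines climb.

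Since counts were made without regard to strand, overlapping genes share reads. The overlap was small for the genes named above: Gm19744 covers 1.11% of the exons of Tenm3, Gm7628 2.68% of Plxnb1, Gm48718 1.38% of Plxnc1, Mir1903 0.818% of Nrp1 and Zan 0.711% of Ephb4, and no other gene overlaps the exons of Ntn1, Slit2, Robo1, Robo2, Robo4, Flrt2, Ephb6 or Sema6c. Tenm3 lies on chromosome 8 (48227682 to 48843951), Ntn1 on chromosome 11 (68209364 to 68400823), Slit2 on chromosome 5 (47983138 to 48307733) and Nrp1 on chromosome 8 (128358604 to 128503363) of GRCm38. Robo1 (72308306 to 73046095) and Robo2 (73891839 to 74411825) are neighbours on chromosome 16.

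Promoter windows of 6 of these genes are shown so that members with lower values in 3 of 3 pairs (Tenm3, Slit2, Flrt2 and Plxnc1) can be read beside abundant vessel genes without such a difference (Robo4 and Ephb4). They are RefSeq sequences of GRCm38.p6 from 250 bases before to 50 after the gene start, 5′ to 3′, and 65 of the 76 members had one. Capitals mark matches on either strand to any of 4 motifs: the TATA box written TATAAA, the CCAAT box written as its name, the GC box written GGGCGG, and the ETS core written CGGAAG.
Tenm3, chr8:48674641-48674940, minus strand: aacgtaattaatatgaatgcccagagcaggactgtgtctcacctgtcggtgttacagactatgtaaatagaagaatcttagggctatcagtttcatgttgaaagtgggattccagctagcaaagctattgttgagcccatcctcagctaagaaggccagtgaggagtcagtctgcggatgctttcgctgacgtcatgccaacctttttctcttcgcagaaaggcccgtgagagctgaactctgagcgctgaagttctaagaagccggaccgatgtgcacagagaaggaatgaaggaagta
Slit2, chr5:47982905-47983204, plus strand: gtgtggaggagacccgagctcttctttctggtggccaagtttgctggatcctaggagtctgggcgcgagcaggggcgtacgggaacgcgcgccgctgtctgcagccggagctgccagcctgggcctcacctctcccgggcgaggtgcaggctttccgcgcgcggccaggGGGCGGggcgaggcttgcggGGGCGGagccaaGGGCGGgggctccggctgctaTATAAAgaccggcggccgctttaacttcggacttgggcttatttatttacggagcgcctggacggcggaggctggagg
Flrt2, chr12:95691976-95692275, plus strand: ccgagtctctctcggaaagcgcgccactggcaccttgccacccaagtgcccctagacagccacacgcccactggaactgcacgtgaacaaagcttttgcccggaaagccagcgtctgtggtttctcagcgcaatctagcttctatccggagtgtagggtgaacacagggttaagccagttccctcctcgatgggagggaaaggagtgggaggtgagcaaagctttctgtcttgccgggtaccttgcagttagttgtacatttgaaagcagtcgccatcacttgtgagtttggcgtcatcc
Plxnc1, chr10:94944796-94945095, minus strand: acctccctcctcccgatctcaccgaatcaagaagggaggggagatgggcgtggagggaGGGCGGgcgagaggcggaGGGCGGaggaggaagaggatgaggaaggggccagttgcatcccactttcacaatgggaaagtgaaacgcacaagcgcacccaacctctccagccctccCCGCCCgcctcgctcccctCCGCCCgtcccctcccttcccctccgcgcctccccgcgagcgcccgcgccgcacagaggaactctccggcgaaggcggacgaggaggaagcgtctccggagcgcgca
Robo4, chr9:37401722-37402021, plus strand: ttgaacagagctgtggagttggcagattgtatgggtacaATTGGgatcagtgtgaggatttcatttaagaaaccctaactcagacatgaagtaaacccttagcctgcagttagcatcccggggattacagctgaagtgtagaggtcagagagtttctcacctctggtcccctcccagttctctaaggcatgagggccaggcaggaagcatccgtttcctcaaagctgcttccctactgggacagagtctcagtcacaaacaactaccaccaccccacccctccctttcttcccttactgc
Ephb4, chr5:137349859-137350158, plus strand: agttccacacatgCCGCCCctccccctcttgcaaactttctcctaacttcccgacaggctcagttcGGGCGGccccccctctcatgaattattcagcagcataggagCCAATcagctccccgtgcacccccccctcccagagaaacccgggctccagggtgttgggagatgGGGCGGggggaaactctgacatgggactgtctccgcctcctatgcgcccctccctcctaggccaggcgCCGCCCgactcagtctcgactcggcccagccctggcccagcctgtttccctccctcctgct

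Of 32851 windows of the same length, 13.6% held a TATA box so written, 37.4% a CCAAT box, 35.7% a GC box and 16.9% an ETS core. The Slit2 window held 1 TATA box and 3 GC boxes, and at 68.0% G and C with 30 CpG pairs it was richer than the median window (52.7% and 7). The Plxnc1 window was similar in composition (69.0% and 30) with 4 GC boxes and no TATA box. The windows of Tenm3 (47.3% G and C, 10 CpG pairs) and Flrt2 (55.3%, 14) held none of the 4 motifs. The Robo4 window (50.3%, 2) held 1 CCAAT box, and the Ephb4 window (64.7%, 14) held 1 CCAAT box and 4 GC boxes. None of the 4 motifs was in all 4 windows of the members with lower values, and the GC box was in those of Slit2 and Plxnc1. The RefSeq start of Tenm3 lies 169261 bases inside the gene as annotated, so its window is that of an inner start.

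The third question was how the members varied between the 3 sorting dates. The quasi-likelihood test of the date called 0 of 13475 genes at an adjusted p under 0.05 (0.0%), whereas DESeq2 called 403 (2.99%) and the likelihood ratio test 325 (2.41%). Each of the latter called the same 7 members: Ntn1, Ntn4, Neo1, Tenm3, Slit2, Robo1 and Ephb3. At an unadjusted p under 0.05 the quasi-likelihood test listed 12 members (21.4%), beside 1116 of all genes (8.28%). The lowest p-values were, in this order, those of Ntn1, Tenm3 and Ntn4 (adjusted p = 0.598 for each by edgeR). All 12 members were lowest on the third date. Ntn1, Ntn4 and Neo1 of the netrin system had lower p-values for the date than for the genotype. This was not particular to netrins, as Tenm3, Sema3b, Sema5a and Sema6c had them too. Of the 10 members listed for the genotype, 7 (Tenm3, Ntn1, Slit2, Robo1, Robo2, Flrt2 and Sema6c) were among the 12. Both p-values of a gene come from the same fit, where a small unexplained spread lowers both. Such overlap among all genes was not counted.

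Orders of the libraries that recurred among the members are described next, and they were chosen after the values were seen. In 15 of 56 members (26.8%) wt 1 was the highest library and flt3L-/- 3 the lowest, beside 9.83% of all genes tested. Of the 10 members listed for the genotype, 9 had this order, Plxnb1 being the other one. They had been listed for lower flt3L-/- values, which favours a wt library as the highest and a flt3L-/- library as the lowest. In 19 members (33.9%) wt 1, wt 2 and flt3L-/- 1 all lay above the other 3 libraries, beside 11.3% of all genes. Efnb2, the arterial ephrin, was such a gene with 58.7, 151 and 18.6 CPM in wt and 119, 27.6 and 26.9 CPM in flt3L-/-. Ntn1, Ntn4, Neo1, Unc5a and Unc5b of the netrin system shared it. So did 7 of the 10 members listed for the genotype, namely Tenm3, Ntn1, Slit2, Robo1, Robo2, Flrt2 and Plxnb1. As 2 of those 3 high libraries were wt, a gene of this order could have a higher wt mean without being lower in each pair. Efnb2 shows this with pair differences of 1.01, -2.45 and 0.53. Sema6b, also of this order, had a lower wt mean (65.8 CPM, against 78.8 CPM in flt3L-/-). For both orders, the share among all genes with an unadjusted p under 0.05 and lower flt3L-/- values was not counted.

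Fibroblast markers moved in part of these orders. Their summed level was 17996, 11070 and 7566 CPM in wt and 7724, 11587 and 3624 CPM in flt3L-/-, 6 of the 8 markers were highest in wt 1 and lowest in flt3L-/- 3, and 3 of 8 (Col1a1, Col1a2 and Col3a1, all fibrillar collagens) had an unadjusted p under 0.05 with lower flt3L-/- values. All 8 had a negative log2 fold change, with a median of -0.75. In pairs 1 and 3 the sum differed by -1.22 and -1.06, Slit2 by -1.43 and -1.68 and Robo1 by -1.38 and -1.70. Ntn1 differed less there, by -0.26 and -0.52. In pair 2 the fibroblast sum differed by 0.07, but its markers parted, with Dcn, the most abundant of them, at 0.38 and Tcf21 at 0.66, whereas Col1a1 and Col1a2 were at -0.40 each and Col3a1 at -0.61. Of the other markers in pair 2, Lum (0.37) and Dpt (0.08) were positive and Pdgfra (-0.04) was close to level. The 10 members listed for the genotype ranged in that pair from -0.15 (Slit2) and -0.30 (Robo1) to -0.91 (Robo2) and -2.27 (Plxnb1). In that pair they shared a sign with the 3 collagens but not with Dcn, Lum, Tcf21 and Dpt. The 10 members and the 3 collagens had passed the same cut, an unadjusted p under 0.05 with lower flt3L-/- values. That cut favours a negative difference in each pair, so no conclusion is drawn from the shared sign. Of 8 pericyte and smooth muscle markers, summing to 441 to 899.7 CPM in wt and 274 to 553 CPM in flt3L-/-, 2 had an unadjusted p under 0.05 with lower flt3L-/- values. That sum was also highest in wt 1 and lowest in flt3L-/- 3, and differed by -0.70, 0.16 and -0.85 in pairs 1, 2 and 3. Of the 8 markers, 5 had this order and 7 a negative log2 fold change. The part of these markers in the lower member values was not tested.

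Other members were read beside other markers. Sema4a, a semaphorin of immune cells, had 12.9, 33.3 and 72.8 CPM in wt and 14.6, 35.5 and 5.98 CPM in flt3L-/-, and the leukocyte markers summed to 156, 417 and 971 CPM in wt and 201, 449.9 and 117 CPM in flt3L-/-. Both were highest in wt 3 and lowest in flt3L-/- 3, as were 4 of 7 tested leukocyte markers and 1 other member, Sema3a. With Sema4a and Sema3a, 2 of 56 members had this order, beside 3.78% of all genes tested, so their share was near the background. Sema4d, the semaphorin of lymphocytes, had 6.84, 23.0 and 25.7 CPM in wt and 10.5, 25.8 and 1.70 CPM in flt3L-/-, with its one large difference in pair 3. Nrp1 and Robo4 kept nearer to the sum of the 9 other endothelial markers, which was 7232, 8920 and 8610 CPM in wt and 9406, 7163 and 9529 CPM in flt3L-/-. In all 3 of these the flt3L-/- library was higher in pairs 1 and 3 and lower in pair 2. Not every endothelial marker had the signs of the sum. Kdr, the most abundant of them, differed by -0.14 and Cdh5 by -0.36 in pair 3, and Emcn was level in pair 2 (0.01). The other markers of the sum had its signs in each pair. The part of leukocyte and endothelial markers in these values was not tested.

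**Figure D4:**
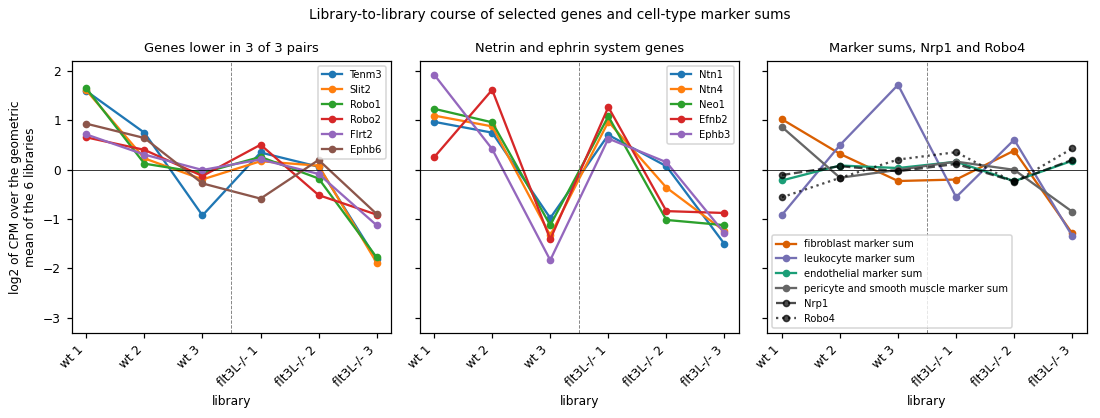
Level in each of the 6 libraries as log2 of CPM over the geometric mean of the libraries, for 6 members lower in 3 of 3 pairs (left), 5 genes of the netrin and ephrin systems (middle) and marker sums with Nrp1 and Robo4 (right). The genes of the left panel, the fibroblast sum and the pericyte and smooth muscle sum are highest in wt 1 and lowest in flt3L-/- 3. Between those libraries they do not descend steadily. The genes of the middle panel are highest in wt 1, wt 2 and flt3L-/- 1, as are Tenm3, Slit2, Robo1, Robo2 and Flrt2 on the left. Nrp1 stays near the endothelial sum.

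The partners and effectors of these systems were read from a list of 49 other genes, of which 46 were tested. Of these, 26 had a negative and 20 a positive log2 fold change, the median was -0.06, and 1 had an unadjusted p under 0.05 with a negative value (2.49% of all genes tested) and none with a positive one (1.11%), so that the share among these 46 genes was near the background. The gene was Gpc1, glypican-1, a heparan sulfate proteoglycan that binds Slit2, with 18.6, 16.8 and 12.7 CPM in wt and 11.1, 10.3 and 4.35 CPM in flt3L-/- (log2 fold change -0.99, SE 0.250). Its groups did not overlap. Ankmy1 covers 18.9% of the exons of Gpc1, and reads of both genes cannot be told apart there. Among the next lowest p-values with a negative sign was that of Adgrl1, a latrophilin (log2 fold change -0.55, SE 0.296, with 15.6% of its exons covered by other genes). With a positive sign they were those of Nck1, an adaptor of Eph and Robo receptors (0.30, SE 0.185), Rnd1, a GTPase that binds plexins (0.32, SE 0.231), and Trio, an exchange factor downstream of netrin receptors (0.19, SE 0.142). Of the 38 cytoplasmic effectors tested, 20 had negative and 18 positive values and none an unadjusted p under 0.05. Rac1, the GTPase on which many of these receptors act, followed the order of Efnb2 with 384, 599 and 87.6 CPM in wt and 698, 153 and 134 CPM in flt3L-/-, and Daglb covers 51.4% of its exons.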

How the data were processed

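Poly(A) RNA of sorted cardiac SP cells was prepared without strand marking (SMART-Seq v4) and sequenced as single reads of 81 bases. According to the methods and the submitters' processing notes, reads were checked with FastQC 0.11.3 and mapped to mm10 with STAR 2.5.2a, allowing at most 10 hits and placing equally good hits at random. The deposited values are raw counts: the authors counted reads that started in an exon of a gene of Ensembl release 88, per library and without normalization. Reads from overlapping genes therefore cannot be told apart. Gene symbols, biotypes and exon lengths were taken here from GENCODE annotation of the same build, which matched 50376 of 50600 genes.

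Tests covered the 13475 protein-coding genes that exceeded 1 CPM in 2 or more libraries and used edgeR 4.0.16 (R 4.3.3; TMM factors, glmQLFit with legacy = TRUE, glmQLFTest) on genotype and sorting date, with Benjamini-Hochberg adjustment over all genes tested. The methods name an older edgeR release, which was not run here, and its arguments are not given in the sources used here. Values in single pairs are differences of log2 CPM with a prior count of 2. The labels give each wt and flt3L-/- pair a common sorting date, and the deviations of paired libraries from their group means correlated at 0.180, 0.104 and 0.116 over genes. Every pair exceeded 0.1, and the date was kept as a block. Some unpaired libraries correlated more, as wt 2 and flt3L-/- 1 did at 0.247. DESeq2 1.42.0, edgeR's likelihood ratio test and limma-voom (limma 3.58.1), other scalings, filters and left-out pairs served as alternatives. The quasi-likelihood test, the likelihood ratio test, limma-voom and DESeq2 were run on simulated data with the main scaling, filter and block. The other settings were not. Counting intervals and the floor of 3 counts cover counting error only.

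Named with values were Tenm3, Ntn1 and Nrp1, members with an unadjusted p under 0.05, members whose groups did not overlap, members of one sign in 3 of 3 pairs with a log2 fold change over 0.5 in size, the 2 most abundant members per kb of each family, the 3 lowest p-values for the date and the 3 lowest in each direction among the other pathway genes. A gene of the last set is not reported here. Unc5a, Efnb2, Ephb3, Epha7, Sema5a, Sema3a, Sema4a, Sema4d and Rac1 were named after their values were seen. The members and lists were chosen with earlier results of these data known, so the pattern of the members is no independent evidence.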

Additional observations from a re-analysis of the deposited data

How the results depend on the processing

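No member was called for the genotype at an adjusted p under 0.05 in any setting tried, nor at a threshold of 0.1. The 20 members under the filter were tested only in the fit without it, Epha6 and Epha8 among them with under 3 counts in every library. Whether more reads or more pools would change a call was not tested. Over all genes, DESeq2 called 21 and 403 (genotype and date) and the likelihood ratio test 12 and 325, against 0 and 0, and for the date both called 7 members against 0. Leaving out 1 pair moved the genes called for the date between 0 and 112 and the members called for it between 0 and 6, both highest without pair 2. In the same way the members with an unadjusted p under 0.05 went from 3 (without pair 3) to 15 (without pair 2, 12 lower and 3 higher, namely Efnb2, Efnb1 and Sema3f), the other pathway genes with such a p from 1 to 7 (without pair 2), and the median log2 fold change of the members from -0.54 (without pair 1) to -0.24. With no replicate block for the paired dates, 1 member had an unadjusted p under 0.05 against 10, and Flrt3 (0.34) and Plxnd1 (0.11) changed sign. The median wt level was 2.19 CPM per kb on the longest transcript, and 1.15 to 1.87 with 1 wt library left out, lowest without wt 1.

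The sign of some fold changes turned, most of them small, and the cause was not tested. Plxna2 became -0.036 on library size alone, -0.011 with limma-voom, -0.0090 with filterByExpr, -0.0095 with 1 CPM in all libraries and -0.0075 with all biotypes. Flrt3 became 0.23 with limma-voom and 0.19 with legacy = FALSE. With 1 pair left out, the range of log2 fold changes was -0.61 to 0.52 for Plxna2, -0.54 to 0.53 for Flrt3, -0.65 to 0.41 for Plxnd1, -0.041 to 0.21 for Nrp1 (also -0.039), -0.14 to 0.33 for Ephb4, -0.18 to 0.47 for Nrp2, -0.17 to 0.35 for Sema6b, -0.65 to 0.20 for Sema3g and -1.64 to 0.10 for Slit3. None of the 10 members with an unadjusted p under 0.05 changed sign in any setting. In the other 474 comparisons of single genes the sign was kept and the adjusted p stayed over 0.05, and the other 105 of summary values were kept. The side of an unadjusted p of 0.05 was less stable: with all 6 libraries Sema6c was under it in 5 of 12 alternatives, Plxnb2 in 3 of 13 and Sema3c in 1 of 13, and 9 of the 10 listed members were over it without the block.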
